A study of Mus musculus with 2 samples.

Results

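The 10 genes described here encode the growth factors of the vascular endothelial growth factor (VEGF) family Vegfa, Vegfc and Pgf, the VEGF receptors Flt1 and Kdr, the angiopoietin Angpt2 and its receptor Tek, the peptide apelin (Apln) and its receptor Aplnr, and the endothelial proteoglycan Esm1. They were taken by symbol from a list of angiogenesis genes, all 10 were found in the gene lists of both libraries, and they make up 10 of the 22620 genes counted. The libraries were single-cell RNA sequencing of primary tumours (PT) and of paired lymph nodes (LN) from C57BL/6J mice bearing EO771-HEVM3 tumours, 1 library per tissue. Both were pooled from 6 mice, which the study methods give as 5 to 6 weeks old when obtained, and the labels name no treatment. The cancer cells are of murine mammary origin, and the HEVM3 derivative of EO771 was kept after 3 rounds of selection in mice for cells that spread from lymph nodes through high endothelial venules, so all of them come from 1 selected line. The labels name no sorting, but the study also sequenced sorted blood vessel endothelial cells of metastatic LNs, and whether such cells were added to the LN library is not stated. With 1 pooled library per tissue there is no replicate, so no test was run, all intervals cover counting error only, and differences between animals, digestion and library cannot be told apart from differences between tissues.

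VEGF-A acts on endothelial cells through KDR and drives sprouting of new vessels, while FLT1 binds VEGF-A and placental growth factor (PGF) with high affinity and is best known as a decoy. ANGPT2 is released by endothelial cells and antagonises ANGPT1 at the receptor TEK, which loosens the contact of vessels with their mural cells. Apelin and ESM1 are known as products of tip cells, the leading cells of a growing sprout, and the apelin receptor is known from venous endothelium and from the stalk behind the tip.

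Cells were named from marker genes. The PT library held 12427 deposited cells and 173317475 UMIs (unique molecular identifiers, counts of captured RNA molecules), of which 8756 cells with a median of 9383 UMIs were kept, and the LN library held 11617 cells and 122207852 UMIs, of which 9689 cells with a median of 2324 UMIs were kept. The libraries shared 47 deposited barcodes, 31 of them among kept cells and 1 among endothelial cells. The endothelial cells numbered 51 in the PT library and 188 in the LN library, and 61 of the latter formed a class with the high endothelial genes Glycam1, Chst4 and Fut7, called HEC-like here. The other 127 LN endothelial cells are called LN endothelial cells below.

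The labels were checked against the endothelial markers Pecam1, Cdh5, Cldn5, Egfl7, Esam, Ecscr, Robo4 and Emcn. The PT endothelial cells held all 8 markers, summed to 4600 counts per 1000000 UMIs of the class (CPM), and none of the 3 high endothelial genes. They also held 906 CPM of the cancer marker list (31 of 51 cells) and 536 CPM of the fibroblast list (15 of 51 cells), against 44.3 and 6.85 CPM in LN endothelial cells, and what these add to the PT values was not tested. Of the endothelial list, the LN endothelial cells held 1622 CPM (114 of 127 cells with a UMI) and the HEC-like cells 915 CPM (55 of 61 cells). In the PT library all 51 endothelial cells held a UMI of it. A UMI of Glycam1, Chst4 or Fut7 was found in 48 of the 61 HEC-like cells, so the LN labels rest on clusters and not on every cell. Cldn5, a tight junction gene of blood vessels, was at 0 in the HEC-like cells, and all 35 of its UMIs in the LN endothelial cells came from 2 cells that clustered with 48 PT endothelial cells. Of the lymphatic endothelial markers Prox1, Lyve1, Mmrn1, Reln and Ccl21a, those 2 cells held 3 UMIs of Prox1 and 7 of Lyve1 and none of the others. Mmrn1, Reln and Ccl21a had no UMI in any LN endothelial subcluster. The 2 cells also held 22 of the 74 Flt1 UMIs, so values without them are given where they matter. Median depth was 6230 UMIs per cell in PT endothelial, 8464 in LN endothelial and 30825 in HEC-like cells.

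The region in front of each start site is shown for Flt1, Kdr and Esm1, which were all higher in PT than in LN endothelial cells, and for Apln, which was not. The windows are the 250 bases before the RefSeq start site in GRCm38.p6, read 5′ to 3′ on the strand of the gene. Capitals mark matches, on either strand, to the core of the hypoxia response element (ACGTG or GCGTG) and to the core of ETS factor sites (AGGAAG or CGGAAG), the latter a family with many members in endothelium. They lie at chr5:147726012-147726261 on the minus strand for Flt1, chr5:75978456-75978705 on the minus strand for Kdr, chr13:113209409-113209658 on the plus strand for Esm1 and chrX:48034854-48035103 on the minus strand for Apln.
Flt1: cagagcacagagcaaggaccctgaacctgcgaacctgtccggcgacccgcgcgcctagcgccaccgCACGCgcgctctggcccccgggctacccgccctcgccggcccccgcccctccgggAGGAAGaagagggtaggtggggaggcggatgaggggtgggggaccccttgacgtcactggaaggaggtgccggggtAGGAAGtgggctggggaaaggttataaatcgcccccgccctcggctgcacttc
Kdr: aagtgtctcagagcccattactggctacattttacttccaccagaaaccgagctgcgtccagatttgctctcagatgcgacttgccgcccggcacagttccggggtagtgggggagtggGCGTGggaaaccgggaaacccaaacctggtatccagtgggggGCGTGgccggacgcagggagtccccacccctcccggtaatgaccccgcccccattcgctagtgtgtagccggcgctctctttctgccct
Esm1: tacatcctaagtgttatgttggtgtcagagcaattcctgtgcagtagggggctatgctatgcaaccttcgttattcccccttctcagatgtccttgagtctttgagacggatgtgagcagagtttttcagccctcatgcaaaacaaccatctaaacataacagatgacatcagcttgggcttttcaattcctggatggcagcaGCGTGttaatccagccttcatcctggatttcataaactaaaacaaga
Apln: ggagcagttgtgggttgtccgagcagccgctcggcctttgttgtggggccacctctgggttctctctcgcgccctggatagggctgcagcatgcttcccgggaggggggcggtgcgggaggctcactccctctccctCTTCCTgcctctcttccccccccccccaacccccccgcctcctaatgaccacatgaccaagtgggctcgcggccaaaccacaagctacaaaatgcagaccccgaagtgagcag

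The Flt1 window held the hypoxia core 184 bases and the ETS core 129 and 53 bases before the start. Kdr held the hypoxia core at 131 and 89 bases, Esm1 at 47 bases, and Apln held an ETS core at 113 bases and no hypoxia core. Of the 8 genes with a RefSeq window (all but Angpt2 and Aplnr), 4 had a hypoxia core (Pgf, Kdr, Flt1 and Esm1), against 38.6% of all 32851 windows of this length, and 2 had an ETS core (Flt1 and Apln), against 39.2% of all windows. Neither Vegfa, Vegfc nor Tek had either core in its window. These matches describe letters and say nothing of binding.

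Most of the 10 genes were higher in the vessels of the tumour than in those of the node. Of the 9 genes that could be compared (Vegfc had under 20 UMIs), 8 were at least 2-fold higher in PT endothelial than in LN endothelial cells, while none was 2-fold lower. Among all 8150 genes with at least 20 UMIs in these cells together, 26.8% were at least 2-fold higher and 19.6% at least 2-fold lower. The median log2 ratio was 2.71 over the 9 genes, which stays the same with Aplnr at its lower bound, and 0.12 over all 8150. Apln was the exception. Endothelial markers were also higher in the PT cells, at 1067 against 162 CPM for Cdh5, 933 against 161 for Pecam1, 558 against 64.3 for Esam, 536 against 18.4 for Cldn5, 94.3 against 35.3 for Robo4, 243 against 103 for Ecscr and 558 against 226 for Emcn, while Egfl7 was lower, at 610 against 852 CPM. How far the ratios of the 10 genes go with this difference in endothelial marker level was not tested.

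**Figure D1:**
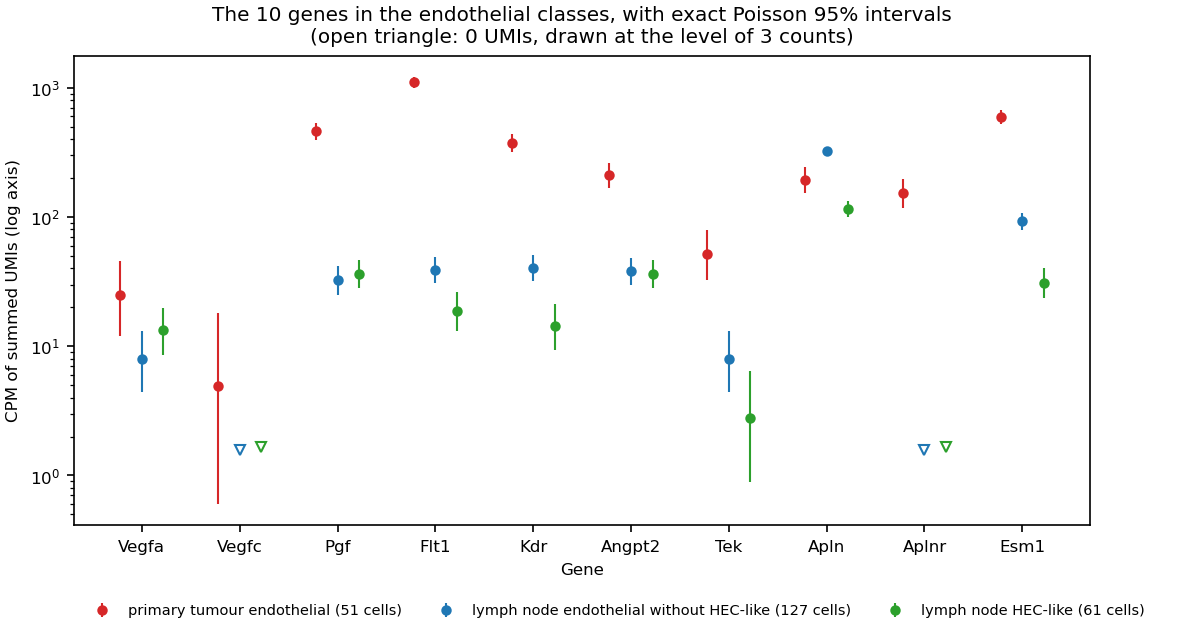
Level of each gene in CPM of summed UMIs (log axis) in PT endothelial, LN endothelial and HEC-like cells, with bars for exact Poisson 95% intervals and open triangles at 3 counts where no UMI was found. The PT points lie above both LN classes for every gene but Apln, whose LN endothelial point at 322 CPM is above the PT point at 194 CPM, and the PT interval of Vegfa overlaps those of both LN classes.

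Among the ligands, Pgf, a VEGF relative that binds FLT1 and not KDR (gene ENSMUSG00000004791, chr12:85166635-85177790, minus strand), was counted with 185 UMIs in PT endothelial, 62 in LN endothelial and 66 in HEC-like cells. These are 459 CPM (95% interval 395 to 530), 32.7 CPM (25 to 41.9) and 36.5 CPM (28.2 to 46.4). The PT level stood apart from both LN levels, with a log2 ratio of 3.80 (3.39 to 4.25) over LN endothelial cells, and the LN intervals overlapped. In the PT library 23 of 51 endothelial cells held a Pgf UMI, with up to 31 in 1 cell.

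Vegfa (ENSMUSG00000023951, chr17:46016993-46032369, minus strand), the main ligand of KDR, was sparse in endothelium, with 10 UMIs in 7 PT cells, 15 UMIs in 14 LN endothelial cells and 24 UMIs in 17 HEC-like cells. The levels were 24.8, 7.90 and 13.3 CPM. The log2 ratio of PT over LN endothelial cells was 1.67 (0.33 to 2.90), and it was -0.071 when endothelial cells were taken by a gate on marker UMIs instead of by cluster. The PT endothelial cells also held 429 CPM of Krt8, a keratin of the cancer cells, and their 5.78 Vegfa UMIs per 100 Krt8 UMIs (2.72 to 10.9) lay within counting error of the 6.27 in PT cancer cells (6.14 to 6.39). Vegfc (ENSMUSG00000031520, chr8:54077606-54187096, plus strand), the lymphatic growth factor that acts on FLT4, had 2 UMIs in PT endothelial cells and 0 in both LN classes, which allows up to 1.58 CPM in LN endothelial and 1.66 CPM in HEC-like cells.

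The VEGF receptors were also far higher in the tumour. Flt1 (ENSMUSG00000029648, chr5:147561604-147726011, minus strand) had 443 UMIs in PT endothelial, 74 in LN endothelial and 34 in HEC-like cells, or 1099 CPM (999 to 1207), 39.0 CPM (30.6 to 49.0) and 18.8 CPM (13.0 to 26.3). It was 28.0-fold higher in PT than in LN endothelial cells, a log2 ratio of 4.81 (4.46 to 5.19), and without the 2 LN cells that clustered with PT cells the log2 ratio was 5.31. A Flt1 UMI was found in 49 of 51 PT endothelial cells and in 22 of 127 LN endothelial cells, and after thinning every cell to 1000 UMIs these shares were 64.6% (3 shallower cells left out) and 3.49% (10 left out). T cells, which should lack the gene, held a Flt1 UMI in 1 of 573 PT cells at a median of 1576 UMIs and in 7 of 3689 LN cells at a median of 2991.

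Kdr (ENSMUSG00000062960, chr5:75932827-75978458, minus strand), the main signalling receptor for VEGF-A, had 150, 77 and 26 UMIs in PT endothelial, LN endothelial and HEC-like cells. The levels were 372 CPM (315 to 437), 40.6 CPM (32.0 to 50.7) and 14.4 CPM (9.39 to 21.1), 3 intervals that did not overlap. The log2 ratio of PT over LN endothelial cells was 3.19 (2.79 to 3.61). Every one of the 38 PT endothelial cells with a Kdr UMI also held Flt1, and 11 held Flt1 alone. In the PT library Kdr lay mostly in the endothelial cells, which held 95.5% (91 to 98.2) of its 157 kept UMIs. With up to 10% mitochondrial UMIs this share was 84.0%, outside that interval.

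Tek (ENSMUSG00000006386, chr4:94739289-94874976, plus strand), the angiopoietin receptor, was low throughout, with 21, 15 and 5 UMIs in the same order. This gave 52.1 CPM (32.3 to 79.7), 7.90 CPM (4.42 to 13.0) and 2.76 CPM (0.90 to 6.45), and a log2 ratio of 2.71 (1.70 to 3.78) of PT over LN endothelial cells. Its ligand Angpt2 (ENSMUSG00000031465, chr8:18690263-18741562, minus strand) had 85, 72 and 66 UMIs, or 211 CPM (168 to 261), 37.9 CPM (29.7 to 47.8) and 36.5 CPM (28.2 to 46.4). The PT level was higher by a log2 ratio of 2.47 (2.00 to 2.95), while the LN classes overlapped.

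The apelin pair split between ligand and receptor. Aplnr (ENSMUSG00000044338, chr2:85136225-85139923, plus strand) had 62 UMIs in 18 PT endothelial cells (154 CPM, 118 to 197) and none in 127 LN endothelial or 61 HEC-like cells. Set against 3 counts it was at least 97.3-fold higher in PT than in LN endothelial cells, and 62 of its 64 kept PT UMIs lay in endothelial cells. Apln (ENSMUSG00000037010, chrX:48025146-48034853, minus strand) had 78 UMIs in PT endothelial, 611 in LN endothelial and 209 in HEC-like cells. Its levels were 194 CPM (153 to 242), 322 CPM (297 to 349) and 116 CPM (100 to 132), and its log2 ratio of PT over LN endothelial cells was -0.73 (-1.09 to -0.39), short of 2-fold. As a mean over cells of single-cell CPM it was 0.030, so the lower PT level of Apln holds for summed UMIs and not for the average cell.

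Esm1 (ENSMUSG00000042379, chr13:113209659-113218098, plus strand), which codes for endocan and is known as a VEGF-induced tip cell gene, had 240, 175 and 56 UMIs in PT endothelial, LN endothelial and HEC-like cells. The levels of 596 CPM (523 to 676), 92.2 CPM (79.1 to 107) and 31.0 CPM (23.4 to 40.2) did not overlap. The log2 ratio of PT over LN endothelial cells was 2.69 (2.40 to 2.98). It was concentrated in few cells, since 21 of 51 PT endothelial cells held a UMI and 1 of them held 48.

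**Figure D2:**
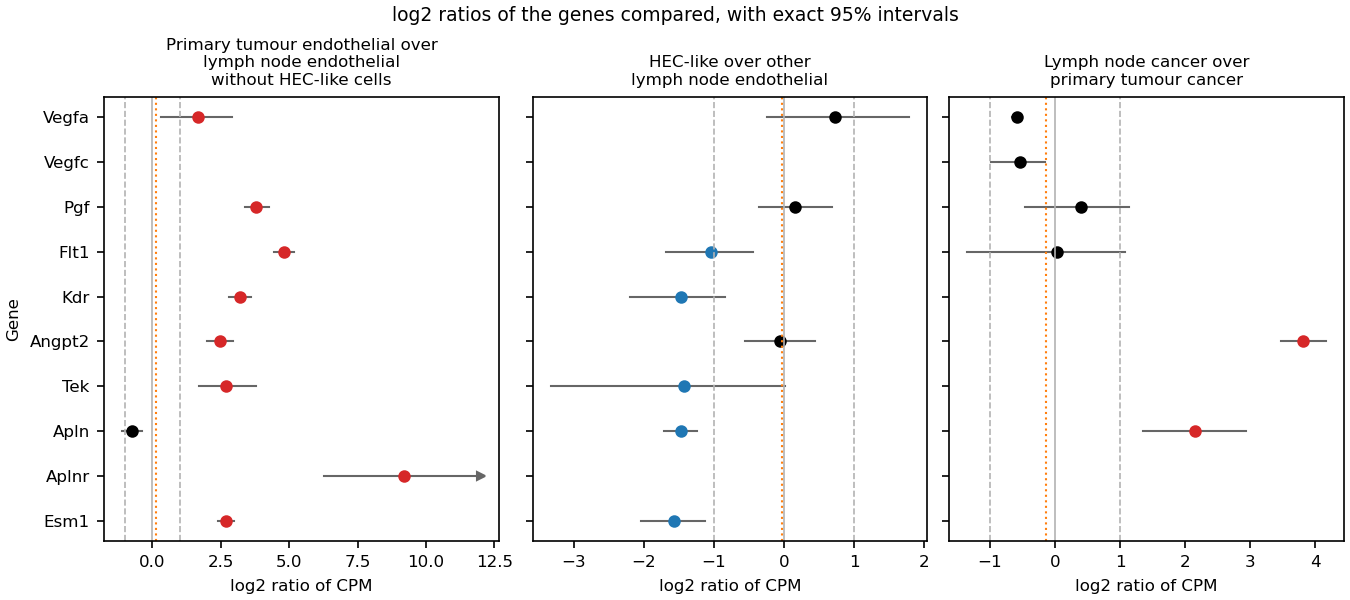
log2 ratio of CPM for each gene with at least 20 UMIs in the compared cells, in 3 comparisons, with bars for exact 95% intervals, an arrow where the interval has no upper end, red for at least 2-fold higher, blue for at least 2-fold lower, dashed lines at 2-fold and a dotted line at the median of all genes compared. In the left panel 8 genes lie right of the 2-fold line and Apln at -0.73, in the middle panel 5 lie left of it, and in the right panel Angpt2 (3.80) and Apln (2.15) lie right of it.

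The PT endothelial cells were not alike in these genes. Of the 3 genes tied to sprout tips or vessel loosening (Esm1, Apln and Angpt2), 8 of 51 cells held UMIs of all 3, 7 of 2, 15 of 1 and 21 of none. Esm1 and Apln shared 11 cells, and 3 of the 14 Apln cells lacked Esm1. In the LN endothelial cells 11 of 127 held all 3 and 56 none, and in the HEC-like cells 9 of 61 held all 3 and 16 none. These counts rise with the depth of a cell and are given as a description.

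Mural cell markers moved with part of this variation. Of the 51 PT endothelial cells, 18 held a UMI of Rgs5, Cspg4, Notch3, Kcnj8, Abcc9 or Higd1b, markers of the pericytes that wrap vessels, at a median of 9624 UMIs against 4248 in the other 33. All 6 mural markers were detected, summed to 958 CPM over the 51 cells. Angpt2 was at 339 CPM (265 to 426) in the 18 cells and at 68.3 CPM in the 33, with 72 of its 85 UMIs in the former. Esm1 was at 837 and 326 CPM, Apln at 273 and 105 CPM and Pgf at 569 and 336 CPM. Aplnr went the other way, at 56.4 CPM in the 18 cells and 263 CPM in the 33, as did Flt1 at 922 and 1297 CPM and Kdr at 296 and 457 CPM. PT mural cells had 113.6 CPM of Angpt2 but only 1.80 CPM of Esm1, 10.8 CPM of Apln and no UMI of Kdr, Tek or Aplnr. Without the 18 cells the log2 ratio of PT over LN endothelial cells was 0.89 for Angpt2, 1.83 for Esm1, 3.36 for Pgf and -1.58 for Apln. Of 8 genes then compared, 6 were at least 2-fold higher and Apln was at least 2-fold lower. The share among all genes was taken only with all 51 cells (26.8% higher, 19.6% lower). The count without the 18 cells therefore describes these 8 genes only. What mural RNA or attached mural cells add to these values was not tested beyond this.

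**Figure D3:**
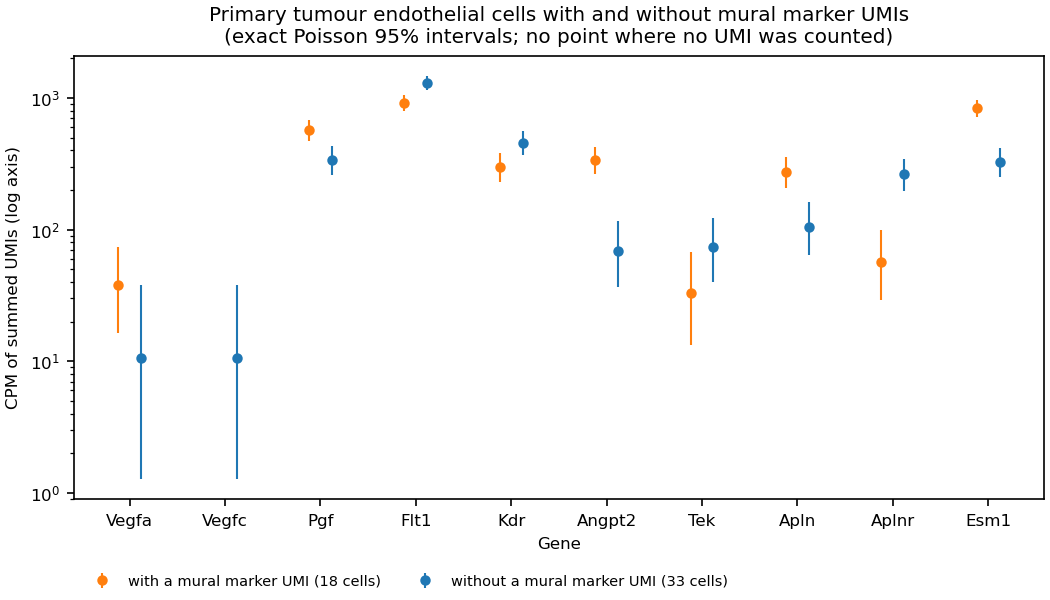
Level of each gene in CPM of summed UMIs (log axis) in the 18 PT endothelial cells with a UMI of a mural marker and the 33 without, with bars for exact Poisson 95% intervals and no point where no UMI was counted. Angpt2, Esm1, Apln and Pgf are higher in the 18 cells, and Aplnr, Kdr and Flt1 are higher in the 33.

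Genes of the same pathways outside the 10 were set beside them. In the VEGF axis, 3 of 4 genes compared were at least 2-fold higher in PT than in LN endothelial cells, with log2 ratios of 5.01 for Nrp1 and 2.34 for Nrp2, co-receptors of the VEGF receptors, and 2.24 for the VEGF-C receptor Flt4. The ligand Vegfb was lower (-2.38). In the angiopoietin axis Tie1, a partner of TEK, and Ptprb, a phosphatase that acts on TEK, were higher (2.16 and 3.20), and Angpt1 and Angpt4 had too few UMIs, as had the second apelin receptor ligand Apela. All 9 tip cell genes compared were higher (Cxcr4, Pdgfb, Dll4, Kcne3, Nid2, Igfbp3, Cd34, Mcam and Plvap), among them the Notch ligand Dll4, with 89 UMIs against 3 and a log2 ratio of 6.91 (5.53 to 9.43), and Plvap, a gene of leaky vessels, with 3.42. All 5 Notch and stalk cell genes compared were higher too, at 2.48 for Notch1, 3.82 for Notch4, 6.43 for Hey1 (4.39 to 12.3), 2.98 for Jag1 and 5.60 for Unc5b. Of 7 hypoxia-induced genes compared 3 were higher, the glucose transporter Slc2a1 (1.14), Ndrg1 (3.01) and Ankrd37 (2.36), and none was lower. Since 26.8% of all genes compared were higher, these counts describe the lists and were not set against chance.

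Within the node, the HEC-like cells had lower levels of several of the 10 genes than the other LN endothelial cells. Of 8 genes compared, 5 were at least 2-fold lower and none was 2-fold higher, against 10.9% lower and 9.36% higher among all 8732 genes compared, with medians of -1.23 over the 8 genes and -0.03 over all. The log2 ratios were -1.57 (-2.04 to -1.13) for Esm1, -1.48 (-2.20 to -0.84) for Kdr, -1.48 (-1.71 to -1.25) for Apln, -1.43 (-3.33 to 0.02) for Tek and -1.04 (-1.68 to -0.45) for Flt1. Angpt2 (-0.06, -0.56 to 0.45), Pgf (0.16, -0.36 to 0.68) and Vegfa (0.73, -0.24 to 1.78) were within 2-fold. All 3 changed sign over the alternatives. Pgf ran from -0.76 with up to 10% mitochondrial UMIs to 0.86 as a mean over cells, Vegfa from -1.01 under the endothelial gate to 1.20 without the upper limit on detected genes, past 2-fold both ways, and Angpt2 from -0.75 as a mean over cells to 0.24 under the endothelial gate. When HEC-like cells were taken by a gate on their marker UMIs, the log2 ratio was -0.58 for Esm1, -0.73 for Kdr and -0.99 for Tek, so that Flt1 and Apln alone stayed past 2-fold. As a mean over cells the log2 ratio of Flt1 was -0.33, short of 2-fold. Without the 2 LN cells that clustered with PT cells, it was -0.54. Tek then fell under the minimum of 20 UMIs, and 3 genes were at least 2-fold lower. Of the other pathway genes, Ptprb (-2.42), Pdgfb (-3.10), Notch4 (-1.36) and Bnip3 (-1.20) were lower and none was higher.

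Of the LN endothelial cells outside the HEC-like class, 58 formed a subcluster with a median of 28898 UMIs that held 78.3% of all UMIs of the class. It held 593 of 611 Apln UMIs, 72 of 77 Kdr UMIs, 67 of 72 Angpt2 UMIs and 167 of 175 Esm1 UMIs, but 51 of 74 Flt1 UMIs and 11 of 15 Tek UMIs. Its levels were 399 CPM for Apln (367.5 to 432), 48.4 for Kdr, 45.1 for Angpt2, 112 for Esm1, 34.3 for Flt1 and 7.40 for Tek. The lymphatic gene Lyve1 was at 60.6 CPM (90 UMIs) in this subcluster, with Prox1 at 0. The next subcluster, of 49 LN cells with a median of 4471 UMIs and 14.6% of the UMIs of the class, held 18 Apln UMIs (65.0 CPM) and 1 UMI each of Kdr, Flt1 and Angpt2. It also held the high endothelial genes Glycam1 at 487 CPM (135 UMIs), Chst4 at 105 CPM and Fut7 at 86.6 CPM, short of the levels of the HEC-like subclusters (at least 2633, 629 and 867 CPM). Another, of 18 cells at a median of 6218.5 UMIs, held no UMI of Apln, Kdr, Flt1 or Tek and 3 of Angpt2. The HEC-like subclusters of 24 and 37 cells had Apln at 100.0 and 124 CPM and Esm1 at 9.67 and 42.1 CPM.

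In the tumour the stroma shared some of these genes. PT mural cells (87) held Flt1 at 663 CPM (597 to 735), with 368 UMIs in 57 cells. These were 31.8% (29.1 to 34.5) of the 1159 kept PT Flt1 UMIs, against 38.2% (35.4 to 41.1) in endothelial cells. The mural share was 23.8% with up to 10% mitochondrial UMIs. It was 38.2% with the endothelial cells that held mural marker UMIs left out. Of the 8 endothelial markers, Cdh5, Cldn5 and Robo4 were at 0 in the mural cells and 5 were detected, with a UMI in 61 of the 87 cells. The list summed to 278 CPM in mural cells, against 4600 in PT endothelial cells. The 87 mural cells held 2922 CPM of the mural list (69 cells) and 7431 CPM of the fibroblast list (80 cells). The fibroblast list was Col1a1, Col1a2, Col3a1, Dcn, Lum, Pdgfra and Dpt. In the fibroblasts the 2 lists were at 969 and 12516 CPM, so the border between the 2 classes is not sharp. What fibroblast RNA adds to the mural values was not tested. Pgf was at 395 CPM (344 to 451) in mural cells, a log2 ratio of -0.22 (-0.51 to 0.07) to endothelial cells, and Angpt2 at 113.6 CPM. Kdr, Tek and Aplnr, by contrast, had no UMI in mural cells, which allows up to 5.41 CPM. A further 17 PT stromal cells left unnamed, with 4039 CPM of the contractile gene Acta2, held Flt1 at 527 CPM (117 UMIs in 13 cells). They held no UMI of Pecam1, Cdh5, Cldn5, Kdr or Tek. Of the same endothelial list they did hold Ecscr at 49.5 CPM (11 UMIs in 6 cells), Esam at 36.0 CPM (8 UMIs in 3 cells) and 1 UMI of Egfl7. Fibroblasts (136) had 143 CPM of Flt1, 90.7 CPM of Pgf, 28.4 CPM of Angpt2 and no UMI of Kdr, with Cdh5, Cldn5 and Robo4 at 0. The other 5 endothelial markers were detected in fibroblasts. The list summed to 155 CPM there, with a UMI in 72 of the 136 cells.

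**Figure D4:**
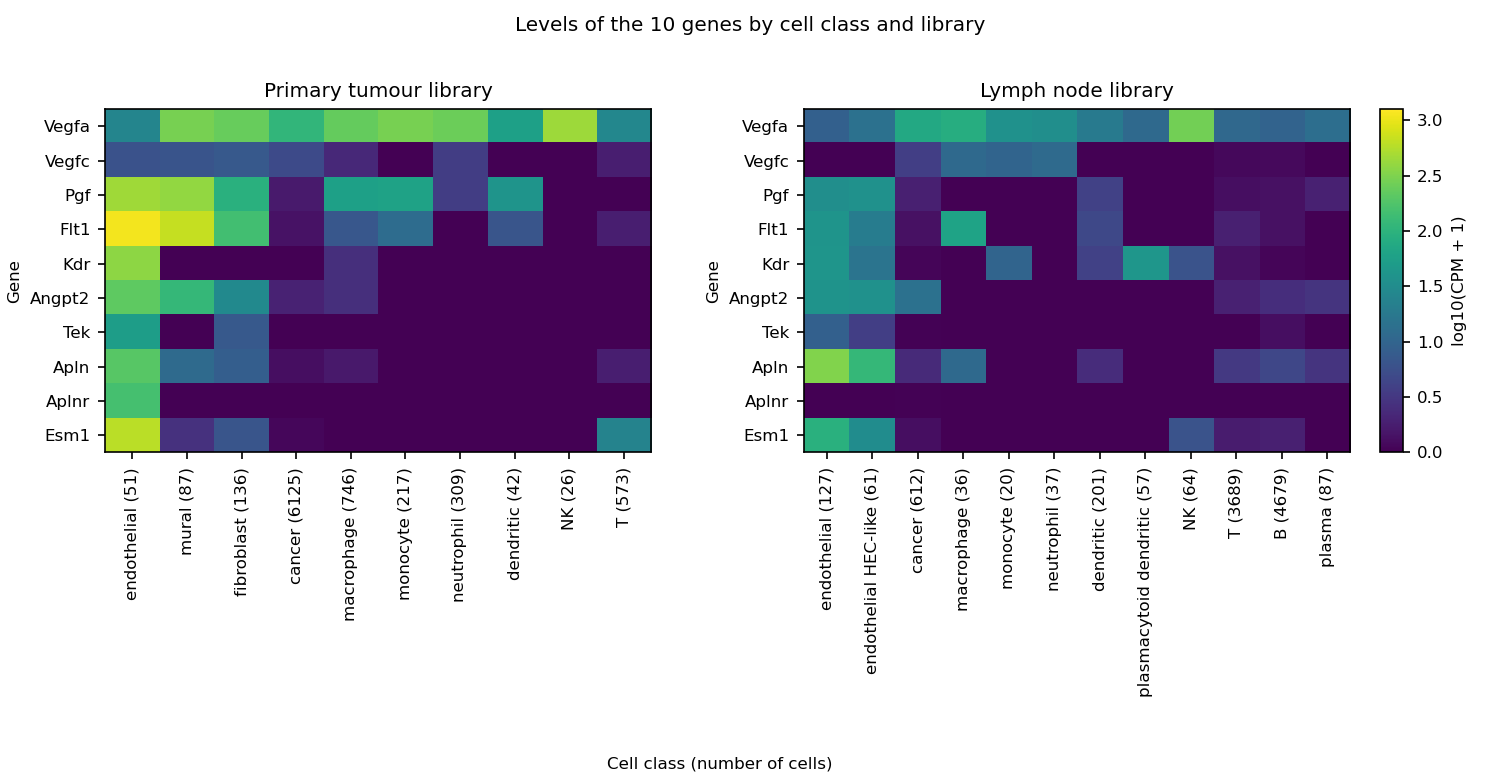
Level of the 10 genes, as log10 of CPM plus 1, in each class of at least 20 cells of the PT library (left) and the LN library (right), with the number of cells in brackets. Kdr, Aplnr and Tek are highest in the PT endothelial column (372, 154 and 52.1 CPM), Flt1 and Pgf are also high in PT mural cells (663 and 395 CPM), and Vegfa is spread over nearly all PT classes.

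Vegfa RNA lay mostly in the cancer cells by amount, but not by level. PT cancer cells held 10639 of 12422 kept Vegfa UMIs (85.6%, 85.0 to 86.3) and 91.8% of all kept PT UMIs, with Vegfa at 109 CPM (107 to 112). By level it was higher in mural cells, at 288 CPM (245 to 337), monocytes, at 288 CPM (244 to 337), and neutrophils, at 249 CPM (201 to 305). It was also higher in fibroblasts, at 237 CPM (209 to 268), and macrophages, at 232 CPM (216 to 249). These stromal and myeloid classes were 2.12-fold to 2.64-fold above cancer cells, and their intervals were above that of the cancer cells. PT dendritic cells were lower than cancer cells, at 56.4 CPM (10 UMIs), a log2 ratio of -0.88 (-2.02 to -0.08). Krt8, an abundant cancer cell gene, was set beside Vegfa in the same cells: Vegfa UMIs per 100 Krt8 UMIs were 593 in mural cells, 112 in macrophages, 32.7 in fibroblasts (28.3 to 37.6) and 29.6 in neutrophils (23.2 to 37.4), against 6.27 in cancer cells. T cells, at the low end by level with 25.9 CPM, had 22.2 (14.7 to 32.8), so by this ratio fibroblasts and neutrophils were not set apart from them. Endothelial cells had 24.8 CPM.

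The highest Vegfa level of any PT class was in the natural killer cells, at 444 CPM (307 to 620), with 34 UMIs in 16 of 26 cells. In the LN library they were again above the other classes, at 277 CPM (207 to 362), with 53 UMIs in 26 of 64 cells, against 73.1 CPM in cancer cells, 10.1 in T cells and 8.65 in B cells. The 26 and 64 cells formed the same cluster, whose leading genes were natural killer genes such as Gzma, Klrb1c and Ncr1. The PT interval overlapped those of monocytes and mural cells.

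Within a class Vegfa varied widely between clusters. Cancer clusters of the PT library had 216 CPM (1239 cells), 178 CPM (751 cells) and 162 CPM (2317 cells), while another pair of clusters, of 1509 and 308 cells, had 10.9 and 11.5 CPM. The summed level of 8 hypoxia genes (Slc2a1, Car9, Pdk1, Ndrg1, Bnip3, Egln3, Ankrd37 and Adm) was 736, 856 and 1096 CPM in the first group and 173 and 183 CPM in the second. The LN cancer clusters, of 513 and 70 cells, lay between them with 74.1 and 73.0 CPM of Vegfa at 604 and 405 CPM of the list. The macrophage clusters split alike, with 40.2 CPM of Vegfa at 228 CPM of the list in 1 cluster and 320 to 411 CPM of Vegfa at 933 to 1350 CPM in the others. The natural killer cells stood apart from this, with 157 CPM of the hypoxia list in the PT and 78.4 CPM in the LN library. The members of the list, like Vegfa, were left out of the genes used for clustering.

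**Figure D5:**
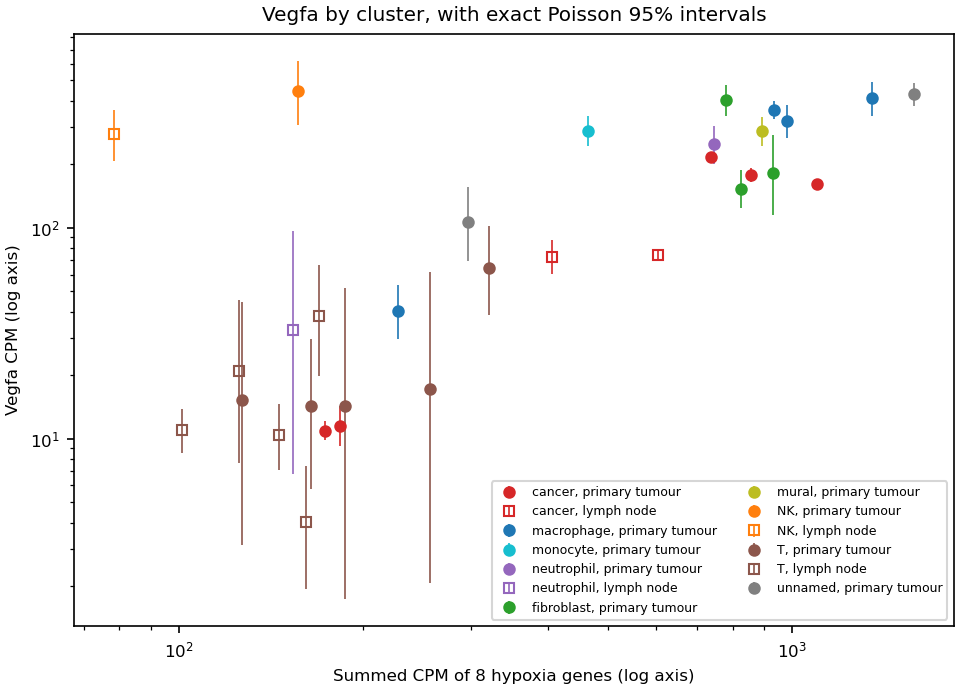
Vegfa level in CPM (log axis, bars for exact Poisson 95% intervals) against the summed CPM of 8 hypoxia genes (log axis) in clusters of at least 20 cells, filled for the PT and open for the LN library, without endothelial clusters and without 1 T cell cluster that held no Vegfa UMI. PT cancer and macrophage clusters fall into a low and a high group on both axes, the LN cancer clusters (74.1 and 73.0 CPM) lie between the groups of PT cancer clusters, and the natural killer points (444 and 277 CPM) lie above clusters with a like hypoxia level.

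The cancer cells of both sites were compared for the same genes. Vegfa was at 73.1 CPM (69.5 to 76.9) in LN cancer cells, from 1498 UMIs in 480 of 612 cells, and at 109 CPM in PT cancer cells, a log2 ratio of -0.58 (-0.66 to -0.50), under 2-fold. Of 6 genes compared, 2 (Angpt2 and Apln, the latter at background level) were at least 2-fold higher and none was 2-fold lower in LN cancer cells, against 9.06% higher and 10.4% lower among all 12541 genes compared, whose median log2 ratio was -0.15. Angpt2 was the larger, at 13.5 CPM from 277 UMIs in 173 of 612 LN cells and at 0.97 CPM from 94 UMIs in 86 of 6125 PT cells. Its log2 ratio was 3.80 (3.46 to 4.16). Of the 277 UMIs, 270 lay in the LN cancer cluster of 513 cells, at 14.7 CPM (13.0 to 16.6). In the naming of that cluster the endothelial class came second to cancer. The LN cluster of 70 cells had Angpt2 at 1.87 CPM (3 UMIs, 0.39 to 5.47), near the 1.93 CPM of the 1239 PT cells of the same cluster. The Angpt2 difference was thus seen in 1 LN cancer cluster. Apln was at 1.37 CPM (28 UMIs) and 0.31 CPM (30 UMIs), a log2 ratio of 2.15 (1.35 to 2.94), with 8 of the 28 UMIs in 1 cell. LN B cells (3.54 CPM, 36 UMIs) and T cells (2.28 CPM, 29 UMIs) had higher Apln levels than LN cancer cells, so the Apln ratio is at the background of the LN library and is not read as a difference between cancer cells. Angpt2 was at 1.57 CPM in LN B cells and 0.94 in T cells, under its level in LN cancer cells. Median depth was 35032 UMIs in LN and 14062 in PT cancer cells. Vegfc, Pgf and Flt1 had log2 ratios of -0.55, 0.40 and 0.03. Angpt2 lies wholly within Mcph1 on the other strand (51300 shared bases), and whether the counting used strand is not given in the sources used here. Mcph1 was at 19.8 CPM in LN and 15.1 CPM in PT cancer cells, and 75 of the 173 LN cancer cells with Angpt2 held Mcph1, against 257 of all 612.

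Other pathway genes at least 2-fold higher in LN than in PT cancer cells were the chemokine receptor Cxcr4 (2.10), Cd34 (2.77) and Ramp3 (1.63). Ptprb (2.03), Apela (1.46) and Pdk1 (1.08) were higher too. Flt4 (-1.43), Nrp2 (-1.17), Pdgfb (-1.71), Car9 (-1.17) and Ndrg1 (-1.86) were at least 2-fold lower. Cxcr4 was at 1.85 CPM in LN (38 UMIs) and 0.43 in PT cancer cells (42 UMIs). Cd34 was at 0.78 CPM (16 UMIs) and 0.11 CPM (11 UMIs). Both were about as low as Apln and were not set against other LN classes here. Neither is therefore read as a difference between cancer cells. Car9 rested on 9 LN UMIs. Vegfc was spread thinly, with 391 of its 416 kept PT UMIs (94%) in cancer cells, which held 91.8% of all kept PT UMIs. Its PT levels were 4.02 CPM in cancer cells (3.63 to 4.44), 6.41 in fibroblasts (7 UMIs), 5.41 in mural cells (3 UMIs) and 4.96 in endothelial cells (2 UMIs), with overlapping intervals, and 27.0 CPM (6 UMIs) in the 17 unnamed stromal cells. In the LN library 56 of 65 Vegfc UMIs (86.2%) lay in cancer cells, at 2.73 CPM, and these cells held 40.7% of all kept LN UMIs.

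Some UMIs lay outside the cells that are known for these genes. LN plasmacytoid dendritic cells held 12 Kdr UMIs in 10 of 57 cells (42.1 CPM, 21.8 as lower end), as high as LN endothelial cells by level, and 1 of those 10 cells held Cdh5 against 12 of all 57. PT T cells held 29 Esm1 UMIs in 14 of 573 cells (23.5 CPM), with no Cdh5 UMI in any. Esm1 lies wholly within Gzmk, a T cell granzyme gene, on the other strand (8440 shared bases), and 8 of the 14 cells held Gzmk against 74 of all 573 T cells, while Gzmk had no UMI in any of the endothelial classes. Myeloid cells of the tumour held Pgf, at 57.2 CPM in macrophages (181 UMIs in 84 of 746 cells), 60.9 CPM in monocytes and 39.5 CPM in dendritic cells, and T cells of the same library held none, which allows up to 2.43 CPM. The 6 Flt1 UMIs of LN macrophages came from 2 cells.

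Over the 22 classes of both libraries with at least 20 cells, genes with the most similar pattern of log2 (CPM + 10) were named for the 8 of the 10 genes with at least 100 kept UMIs, from 12317 genes. They were Rhoq, Lasp1 and Dhrs3 for Vegfa (highest Pearson r 0.81), 6430548M08Rik, Igfbp6 and Mindy1 for Vegfc (0.80), Fabp4, Tfpi and Oaf for Pgf (0.91) and Sparcl1, Apold1 and Fabp4 for Flt1 (0.95). For Kdr they were Cdh5, Lhx6 and Arhgef15 (0.93), for Angpt2 Tmem47, Nbea and Armcx1 (0.97), for Apln Hoxb7, Emcn and Myct1 (0.97) and for Esm1 Robo4, Fam167b and Sox7 (0.96). The classes share 2 libraries and differ in depth, so these values are a description.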

How the data were processed

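Single-cell libraries of PT and LN were analysed as 1 sample each. The deposited matrices hold raw UMI counts, which the authors made with Cell Ranger, version 5.0.0 in the file headers and 2.1.1 in the submitters' processing notes, on GRCm38. Following the study methods, cells needed more than 200 genes, no more than 6000 genes and no more than 5% of UMIs from mitochondrial genes. Doublets were removed with Scrublet (scanpy 1.11.5, expected rate 6%, 30 components): 391 PT cells by its automatic threshold, and, as that marked 0 in LN, 616 LN cells with scores past the 94th percentile. This left 70.5% of PT and 83.4% of LN cells. The DoubletFinder and Harmony steps of the study were not repeated, and the libraries were not integrated. After regression of cell cycle scores (Seurat 5.3.0 lists), both libraries were clustered together on 2000 variable genes per library without the 10 genes and the pathway genes, with 30 components, 15 neighbours and Leiden resolution 1.0 (igraph 0.11.9), and mixed clusters again at 0.5. Endothelial cells were clustered again on 20 components. Clusters were named from fixed marker lists (mean log2 of CPM plus 10 over the 25th percentile of clusters, at least 3 markers raised 2-fold, 10 leading genes, each detected in 25% of cells or more), a rule set after the data were seen, which left 4.89% of PT and 0.144% of LN cells unnamed. HEC-like subclusters had Glycam1, Chst4 and Fut7 all raised 2-fold over the median subcluster.

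UMIs were summed per class and scaled to CPM, which are not divided by gene length, so levels are not ranked between genes. Log2 ratios had 0.5 counts added to each sum and an exact binomial 95% interval, and were taken for genes with at least 20 UMIs in both classes together. Shares have Clopper-Pearson intervals, and a count of 0 allows 3 counts. A ratio of 2-fold stands for a call, since nothing could be tested. The script was tested on simulated data. The named genes are the 10 genes, pathway genes past 2-fold and the 3 most alike genes of each of the 10 with at least 100 kept UMIs, while genes and cells singled out beside them were chosen after their values were seen. The 10 genes, lists and comparisons were chosen with earlier results of these data known. Loci are from GENCODE M21 (GRCm38). Alternatives varied the doublet, mitochondrial and gene limits, resolution, clustering, cell gates, UMI minimum, scaling and single cells. Figures were drawn with matplotlib 3.10.9, intervals came from scipy 1.17.1, and tables were handled with pandas 2.3.3 on python 3.11.15.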

Additional observations from a re-analysis of the deposited data

Results flagged for a closer look

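Cells with over 6000 detected genes were left out of every class, and in the LN library they held most of the deposited UMIs of 9 of the 10 genes. These cells were 8.36% of the LN cells and held 54.7% of all deposited LN UMIs. Their share of the deposited LN UMIs was 86.5% for Apln, 79.9% for Pgf, 78.7% for Kdr, 77.4% for Tek, 75.7% for Esm1, 73.8% for Angpt2, 65.9% for Vegfc, 65.2% for Vegfa and 62.3% for Flt1. The shares of Flt1, Vegfa and Vegfc lay nearest to that of all UMIs. In the PT library the 7.03% of cells over the limit held 25.9% of all UMIs and between 6.77% and 31.6% of the UMIs of the same genes. With these cells kept and all cells clustered again, 203 LN endothelial cells (99 over the limit) and 91 HEC-like cells (32 over the limit) were found. These are what remained after 4 subclusters, with 29, 13, 33 and 22 LN cells, were left out as mixed, since they led with cancer cell genes such as Krt18, B cell genes such as Cd79a or leukocyte genes such as Ptprc. Apln was then at 521 CPM in LN endothelial, 127 CPM in HEC-like and 304 CPM in PT endothelial cells. Flt1 was at 22.0, 14.1 and 1109 CPM and Kdr at 44.3, 15.9 and 369 CPM in the same order, and Aplnr had no UMI in either LN class. Pgf was at 38.1 CPM (34.2 to 42.4) in LN endothelial and 65.2 CPM (57.4 to 73.7) in HEC-like cells, intervals that did not overlap, a log2 ratio of 0.77 against 0.16 with the limit. Angpt2 in LN cancer cells was at 13.6 CPM, from 923 UMIs in 522 of 1321 cells, and at 0.94 CPM in PT cancer cells. Whether large cells are single cells was not tested.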

How the results depend on the processing

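With at least 100 instead of 20 UMIs, 5 genes instead of 8 were 2-fold higher in PT than in LN endothelial cells and 1 instead of 2 in LN than in PT cancer cells, and with no minimum the latter count was 6. Apln became 1 gene 2-fold lower in PT endothelial cells under the endothelial gate and without cells holding mural markers, the latter chosen after seeing the data, while as a mean over cells its log2 ratio was 0.030 instead of -0.73. Under the endothelial gate the log2 ratio of Vegfa, PT over LN endothelial cells, was reversed, at -0.071 instead of 1.67. In HEC-like cells 1 gene, Vegfa, was 2-fold higher without the upper limit on detected genes and as a mean over cells, but at -1.01 under the endothelial gate, and in LN cancer cells 1 gene, Pgf, was 2-fold lower as a mean over cells. The 5 genes lower in HEC-like cells became 3 under the endothelial gate, 2 under the HEC gate (Flt1 and Apln), 3 without the 2 LN cells that clustered with PT cells (chosen after seeing the data) and 3 without the cell with most UMIs of each gene. The gates left 77 or 143 LN endothelial and 47 or 45 HEC-like cells, and with doublets kept or up to 10% mitochondrial UMIs there were 75 or 72 and 106 or 109. Why these values moved was not tested. Of 309 log2 ratios over 23 results, 268 stayed within counting error, 40 moved further and 1 past 2-fold, Vegfa above, turned its sign. Ratios under 2-fold also turned sign under at least 1 alternative, namely Apln of PT over LN endothelial cells, Vegfa, Pgf and Angpt2 of HEC-like cells, and Pgf and Flt1 of LN over PT cancer cells. The log2 ratios of PT over LN endothelial cells for Pgf, Kdr, Flt1, Angpt2 and Esm1 stayed above 0 under every alternative run. No paired analysis was possible because each tissue is 1 pooled library and cells are not assigned to mice. With 51 PT endothelial cells, genes with few UMIs such as Tek and Vegfc carry wide intervals.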
